A study of Mus musculus with 201 samples.

Results

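The cells described here are dentate granule cells of the adult mouse hippocampus that carried an activity signature, taken once as whole cells and once as nuclei. The active whole cells were the saline-treated cells with a total expected count over 50000 and a Fos level over 100 TPM, the length-corrected share of a gene among a cell's transcripts. The active nuclei were the nuclei sorted as FOS+ after exposure to an unfamiliar environment (NE) with a total over 50000 and an Arc level over 1 TPM. These rules kept 21 of 47 saline-treated whole cells and 31 of 48 FOS+ nuclei, 52 of the 201 samples of the series. Fos therefore chose the whole cells and Arc chose the nuclei, and the levels of these genes describe the choice. The Fos levels nearest to the limit were 190 TPM inside and 2.58 TPM outside, with no cell between. The Arc levels nearest to the limit were 1.85, 3.03 and 8.77 TPM inside and 0 in all 9 nuclei outside.

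The series tested whether the RNA of single nuclei records recent neuronal activity, and made a library of each cell or nucleus, for the whole cells and NE nuclei with Smart-seq2, a full-length cDNA method. The whole cells came from Prox1-GFP mice, a reporter strain in which GFP marks granule cells, which received saline and were collected 1 h later. Their tissue was dissociated with protease, by the study's methods with papain at 37 °C for 1 to 1.5 h, and GFP+ cells were sorted from a pool of 2 mice and read as paired ends of 100 bases. The nuclei came from a C57BL/6 mouse that had spent 15 min in the NE and then 1 h in its home cage, by the study's methods an 8-week-old female. They were released by Dounce homogenization without protease, stained, sorted as Prox1+/Fos+ and read as single ends of 50 bases. PROX1 is the transcription factor that marks granule cells. For comparison there were 17 other saline-treated cells, 41 FOS− nuclei of the NE mouse, 23 nuclei of a home cage (HC) mouse sorted as NeuN+/Prox1+ and amplified on a C1 microfluidic system, and 14 cells with over 100 TPM of Fos and 16 other cells from Prox1-GFP mice given pentylenetetrazole (PTZ), a GABA-A receptor antagonist that causes seizures, all with totals over 50000. The labels name no animal for a cell, so each group counts as 1 sample. No p value can be given, and intervals, all at 95%, cover counting error only. Protocol, strain, treatment, animal and read layout all change between whole cells and nuclei and cannot be told apart.

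When a neuron fires, calcium entry switches on immediate early genes within minutes without the need for new protein. Many encode transcription factors such as FOS, EGR1 and NPAS4, and others encode effectors that act at synapses or in signalling, such as ARC and HOMER1. A nucleus holds newly made and unspliced transcripts and loses the cytoplasmic pool, whereas a whole cell holds both, and warm enzymatic dissociation is itself known to induce immediate early genes.

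Totals ranged from 401331 to 2115279 counts in the active whole cells, with a median of 887743, and from 88348 to 1035170 in the active nuclei, with a median of 277748. The number of genes above 1 TPM had medians of 6582 in whole cells and 5903 in nuclei. Prox1 was detected, meaning above 1 TPM, in 21 of 21 active whole cells and 26 of 31 active nuclei, and the neuronal gene Rbfox3 in 90.5% and 71.0%. In the whole cells, 9 of 10 interneuron markers were never above 1 TPM, the exception being Gad1. In the nuclei, 8 of 31 had over 500 TPM summed over the markers of another cell type (Gad1 left out), against 0 of 21 whole cells, and calls that depend on these 8 nuclei are named below.

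The activity genes comprised 31 transcription factors and 31 effectors, of which 59 had enough detection to be compared. The list of transcription factors also holds other nuclear regulators such as Ier2, Btg2 and Per1, which are counted with them throughout. A gene was called when the share of cells detecting it differed by at least 40 percentage points. The active whole cells had the higher share for 11 of the 59 genes (18.6%), beside 17.5% of all 14997 genes compared. The active nuclei had the higher share for 5 (8.47%), beside 14.5% of all genes. These shares of calls do not set activity genes apart from other genes, and the differences described here are those of single genes. Of the 30 transcription factors compared, 7 were called toward whole cells and 0 toward nuclei, and without Fos, whose share the rule fixed, 6 of 29 and 0. Of the 29 effectors, 4 were called toward whole cells and 5 toward nuclei, and without Arc 4 and 5 of 28. The median difference was 21.2 points for transcription factors and −6.30 points for effectors (20.3 and −4.84 without Fos and Arc), beside 3.84 points over all genes. With each library thinned to 80000 reads, 8 of the 11 and all 5 of the 5 kept their call, Egr4, Ier2 and Rgs2 lost it and Dusp14 gained one. Of the 59 genes, 9 (15.3%) were then called toward whole cells and 5 (8.47%) toward nuclei, beside 16% and 8.77% of all genes.

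**Figure D1:**
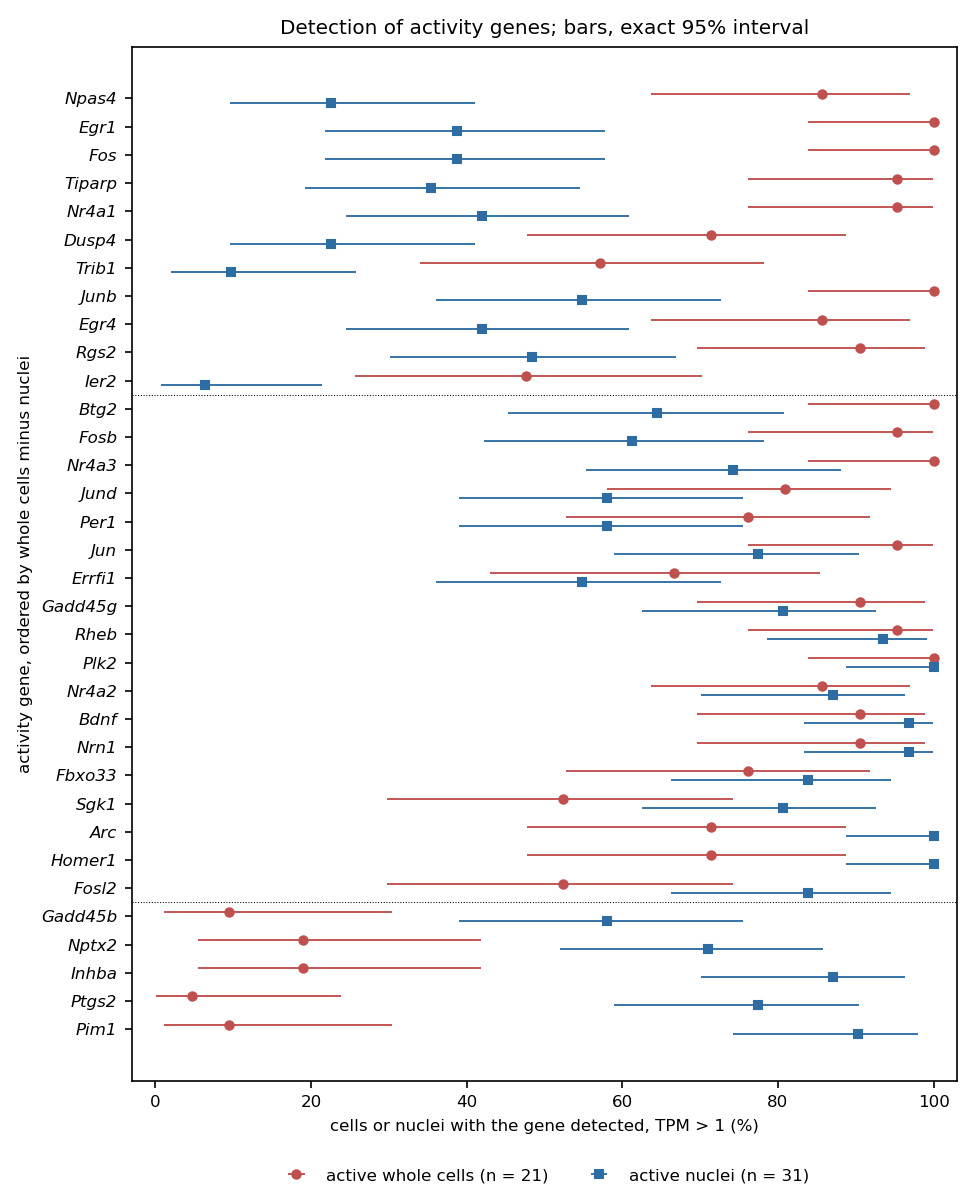
Share of the 21 active whole cells and the 31 active nuclei that detected a gene at over 1 TPM, in percent, for the activity genes that were called or were detected in at least 50% of both sets. Points are shares, bars their exact 95% intervals for counting error, and dotted lines part the called genes from the others. Fos, Egr1 and Npas4 stand higher in whole cells, while Pim1, Ptgs2 and Inhba stand higher in nuclei.

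Among the transcription factors, Fos, whose protein is a subunit of the AP-1 dimer, ranged from 190 to 12419 TPM in the active whole cells with a median of 4174. In the active nuclei it ranged from 0 to 2819 TPM with a median of 0, and 12 of 31 nuclei (38.7%, 21.9 to 57.8) detected it although all had been sorted for FOS protein. Fos was the gene of rank 11 by mean TPM in whole cells and of rank 452 in nuclei. Because the whole cells were chosen by Fos, its share there is fixed by the choice. Its background was low in the nuclei: 3 of 41 FOS− nuclei (7.32%) and 0 of 23 HC nuclei detected it, and the latter allows a share of up to 13%.

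Egr1, a zinc finger factor widely used to mark active neurons, was not used by either rule and gave the same shares as Fos, 100% against 38.7%. Its levels ran from 4.03 to 3515 TPM (median 1432) in whole cells and from 0 to 739 TPM (median 0) in nuclei. The ranges overlapped, since the highest nuclei lay above the lowest whole cell. The difference in share was 61.3 points (38 to 76.3).

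Npas4, a neuron-restricted factor that responds to calcium entry, was detected in 18 of 21 whole cells (85.7%, 63.7 to 97.0) and 7 of 31 nuclei (22.6%, 9.59 to 41.1). Its median was 1013 TPM in whole cells and 0 in nuclei, its highest level 3137 and 383 TPM, and its rank 79 and 4893. Summed over cells it made up 26.9 times (25.2 to 28.7) more of the counts in whole cells than in nuclei. It was detected in 0 of 41 FOS− nuclei and in 2 of 17 other saline-treated cells, at no more than 1.15 TPM.

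Junb, which pairs with FOS proteins in AP-1, was detected in 21 of 21 whole cells and 17 of 31 nuclei (54.8%), with medians of 2601 and 69.3 TPM. Nr4a1, an orphan nuclear receptor, was detected in 95.2% and 41.9%, with medians of 1143 and 0 TPM. Egr4, another zinc finger factor, was detected in 85.7% and 41.9%, and Ier2, a nuclear early response protein, in 47.6% and 6.45%. Among the 4 effectors called in this direction, Tiparp, an ADP-ribosyltransferase, was detected in 95.2% and 35.5%, and Rgs2, which shortens G protein signalling, in 90.5% and 48.4%. The MAP kinase phosphatase gene Dusp4 was detected in 71.4% and 22.6%, and the pseudokinase gene Trib1 in 57.1% and 9.68%. Without the 8 nuclei that held other cell types' markers, 9 of the 11 genes kept their call and Ier2 and Rgs2 did not.

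The 5 genes called toward nuclei were all effectors and were detected in at most 19% of the active whole cells. Pim1, a serine/threonine kinase, was detected in 28 of 31 nuclei (90.3%, 74.2 to 98.0) and in 2 of 21 whole cells (9.52%, 1.17 to 30.4). Its levels ran from 0 to 701 TPM in nuclei, with a median of 94.8, and no active whole cell exceeded 6.19 TPM. Its rank by mean TPM was 1111 in nuclei and 14053 in whole cells. Its summed counts, scaled by library size to CPM, stood at 288 (279 to 298) in nuclei and 0.766 (0.438 to 1.24) in whole cells. It was detected in 2.44% of FOS− nuclei and in 1 of the 9 FOS+ nuclei without Arc.

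Inhba, which encodes the subunit of activin A, a secreted factor of the TGF-beta family, was detected in 87.1% of nuclei and 19% of whole cells. It had a median of 685 TPM in nuclei, and its highest level in an active whole cell was 9.70 TPM. By mean TPM it ranked 102 and 13822. Ptgs2, the inducible cyclooxygenase of prostaglandin synthesis, was detected in 24 of 31 nuclei at a median of 134 TPM. It was detected in 1 of 21 whole cells (4.76%), at 29.1 TPM, and in 4.88% of FOS− nuclei. Both genes were thus abundant in most active nuclei and seen in few whole cells.

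Nptx2, a secreted pentraxin that gathers AMPA receptors at synapses, was detected in 71.0% of nuclei and 19% of whole cells, with a highest level of 384 TPM in a whole cell, so that the sets overlapped more than for Pim1. Gadd45b, a stress-responsive regulator linked to DNA demethylation, was detected in 58.1% and 9.52%, with highest levels of 1589 and 131 TPM. All 5 kept their call without the 8 nuclei that held other cell types' markers.

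**Figure D2:**
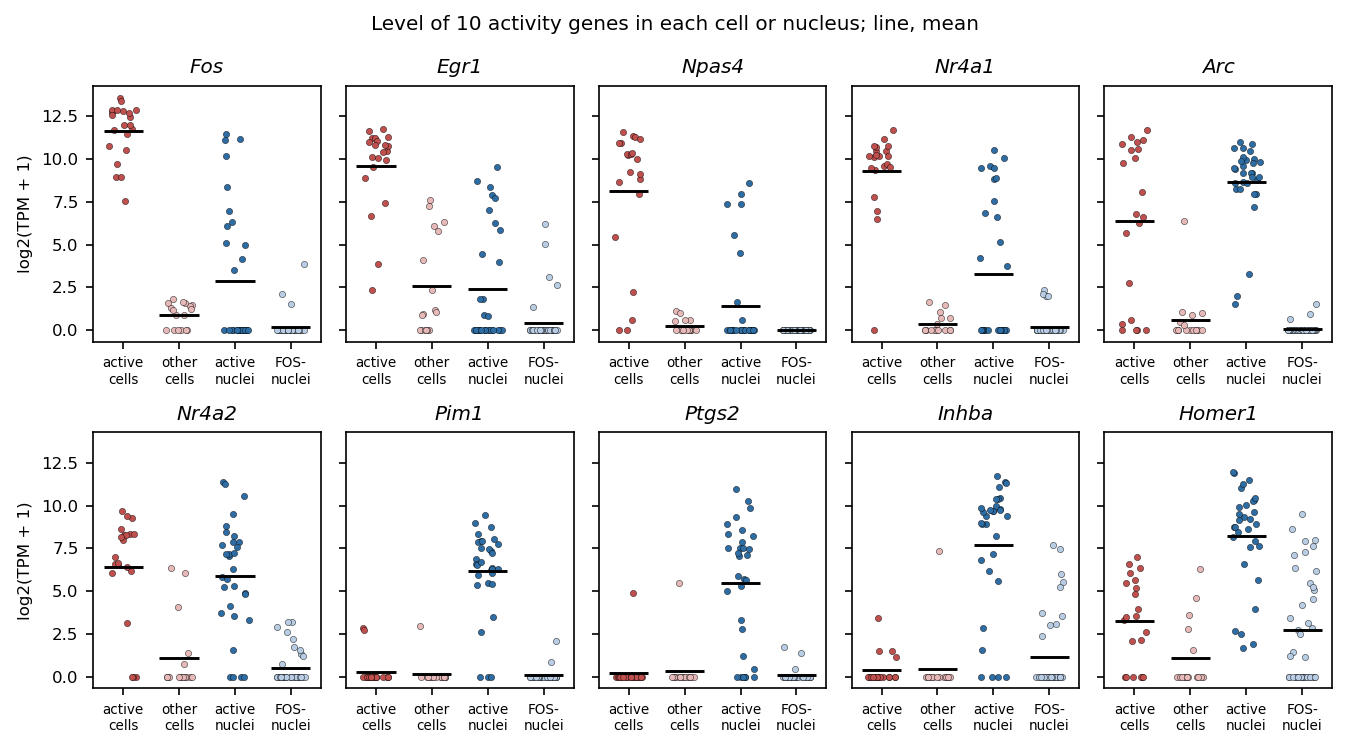
Level of 10 activity genes as log2(TPM + 1) in active whole cells, other saline-treated whole cells, active nuclei and FOS− nuclei, where each point is 1 cell or nucleus and the line is the mean. Npas4 and Egr1 reach their highest levels in active whole cells and Pim1 and Inhba in active nuclei, with a median of 0 TPM for each in the other active set.

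The split also held within single cells. An active whole cell detected a median of 9 of the 11 genes called toward whole cells (6 to 11), and an active nucleus a median of 3 (0 to 10). Of the 5 genes called toward nuclei, a whole cell detected a median of 0 (0 to 2) and a nucleus a median of 4 (1 to 5). None of the 5 was detected in 11 of 21 whole cells, whereas 23 of 31 nuclei detected at least 4 of them and 9 nuclei detected all. These counts use the genes that the same cells had selected, so they describe how the genes combine in a cell. Over all 62 activity genes a whole cell detected a median of 35 (14 to 43) and a nucleus 29 (8 to 46), against 14 in other saline-treated cells and 8 in FOS− nuclei. The 2 active sets overlapped widely in this number.

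With Fos and Arc left out, the transcription factors summed to a median of 11702 TPM per active whole cell (1632 to 22465) and 1772 TPM per active nucleus (74.7 to 9200). The effectors summed to medians of 6407 TPM (1185 to 15973) and 7556 TPM (229 to 19696). Effector totals thus overlapped almost entirely. Transcription factor totals differed in their medians and overlapped in part, as the highest nucleus (9200 TPM) lay above the lowest whole cell (1632 TPM). The transcription factor sum was the larger in 18 of 21 whole cells and in 0 of 31 nuclei, and the median ratio of the sums was 1.75 and 0.274. Among the other saline-treated cells it was the larger in 1 of 17, at a median ratio of 0.273. It was the larger in 8 of 14 PTZ-treated cells with over 100 TPM of Fos, in 4 of 9 FOS+ nuclei without Arc and in 6 of 41 FOS− nuclei. In the latter 2 sets the transcription factors summed to medians of 52.4 and 86.4 TPM. Leaving out Fos and Arc does not undo the choice of whole cells by a transcription factor gene and of nuclei by an effector gene. The part of that choice in the difference between the active sets was not tested.

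**Figure D3:**
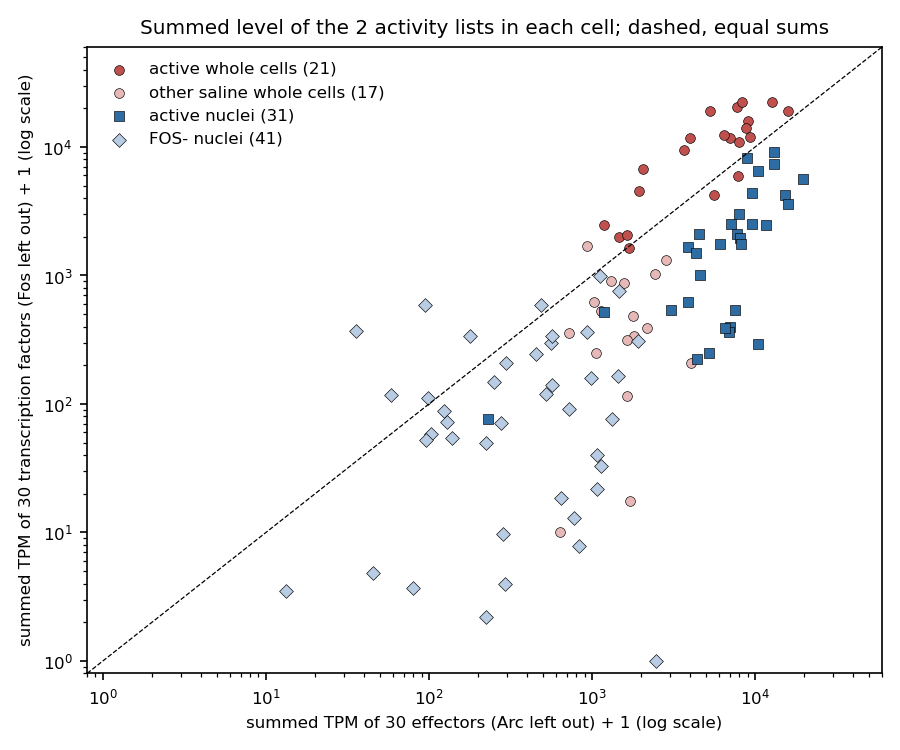
Summed TPM of the activity transcription factors (without Fos) against that of the effectors (without Arc) in each active or other saline-treated whole cell and each active or FOS− nucleus, as TPM + 1 on log axes with the line of equal sums. Of the active whole cells 18 of 21 lie on the transcription factor side, and 0 of the 31 active nuclei do.

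Not all activity genes separated the sets. At least 50% of both sets detected 19 genes: the transcription factors and regulators Fosb, Fosl2, Jun, Junb, Jund, Nr4a2, Nr4a3, Btg2 and Per1, and the effectors Arc, Homer1, Plk2, Sgk1, Gadd45g, Bdnf, Nrn1, Rheb, Errfi1 and Fbxo33. The polo-like kinase gene Plk2, which limits synaptic strength after activity, was detected in all 52, at medians of 1211 TPM in whole cells and 969 TPM in nuclei and at ranks 67 and 36. Nr4a2, an orphan nuclear receptor, was detected in 85.7% and 87.1%, a difference of −1.38 points (−23.2 to 17.1). Bdnf, the neurotrophin, was detected in 90.5% and 96.8%.

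Arc, which encodes a capsid-like protein that controls AMPA receptor traffic, ranked 131 in whole cells and 123 in nuclei by mean TPM. It was detected in 15 of 21 active whole cells at levels of up to 3361 TPM, and in all active nuclei by choice. Homer1, a postsynaptic scaffold, was also detected in 15 of 21 whole cells and in all nuclei, but with medians of 10.2 and 491 TPM and ranks of 5794 and 80. Its mean log2(TPM + 1) was 3.26 ± 2.52 (SD over 21 cells) and 8.25 ± 2.93 (SD over 31 nuclei). The values are per gene and do not separate the short, activity-induced Homer1 transcript from the long form. The 100 genes of highest mean TPM held 8 activity genes in whole cells, namely Fos, Junb, Gadd45g, Btg2, Egr1, Plk2, Nr4a1 and Npas4. In nuclei they held 3, namely Plk2, Nrn1 and Homer1. Across the 62 genes the shares in the sets had a Pearson r of 0.444 and a Spearman rho of 0.443, as a description across genes that share the same libraries.

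Fos, Egr1 and Arc were detected together in 15 of 21 active whole cells (71.4%, 47.8 to 88.7) and in 9 of 31 active nuclei (29%, 14.2 to 48). Since Fos was fixed in whole cells and Arc in nuclei, these shares were then limited by Arc and by Fos and Egr1. When the saline-treated whole cells were instead chosen by Arc over 1 TPM, there were 17, of which 15 had also been chosen by Fos and 2 had not. Against these, 8 of the 11 genes kept their call and Junb, Ier2 and Rgs2 did not, while all 5 genes called toward nuclei kept it.

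The same genes were then set against cells of low activity within each protocol. These contrasts share the active cells with the comparison above and are split by the rule itself. Of the 59 genes, 21 (35.6%) were detected in at least 40 points more active than other saline-treated cells, beside 1.01% of all genes. In nuclei, 19 (32.2%) were so in active over FOS− nuclei, beside 0.66% of all genes. None was lower by that amount in either, and of all genes 24 and 36 were. The 21 include Fos and the 19 include Arc, which the rule used. Genes were compared only when at least 5 of the 52 active cells and nuclei detected them. Genes seen mostly in low-activity samples could thus be missing from these counts and from the shares of all genes. The genes common to both contrasts were Fosb, Junb, Nr4a2, Nr4a3, Arc, Homer1 and Fbxo33. Those called in whole cells alone were Fos, Jund, Egr1, Egr2, Egr4, Nr4a1, Npas4, Ier2, Nfil3, Dusp1, Dusp4, Dusp6, Tiparp and Trib1. Those called in nuclei alone were Fosl2, Jun, Ptgs2, Plk2, Pim1, Sgk1, Gadd45b, Gadd45g, Bdnf, Nptx2, Vgf and Inhba. Whether the contrasts differ for a gene was not tested.

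Side by side, the active share of Npas4 exceeded that of low-activity cells by 73.9 points in whole cells and by 22.6 points in nuclei. For Nr4a1 the differences were 77.6 and 32.2 points. Pim1 went the other way, with 3.64 and 87.9 points, and Ptgs2 with −1.12 and 72.5 points. For Nr4a2 the differences were close, at 62.2 and 65.1 points. Among 18 genes that the study named for its FOS+ nuclei, 10 were called within whole cells and 8 within nuclei, beside 1.01% and 0.66% of all genes. That list was chosen on these nuclei and is not independent evidence for them.

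**Figure D4:**
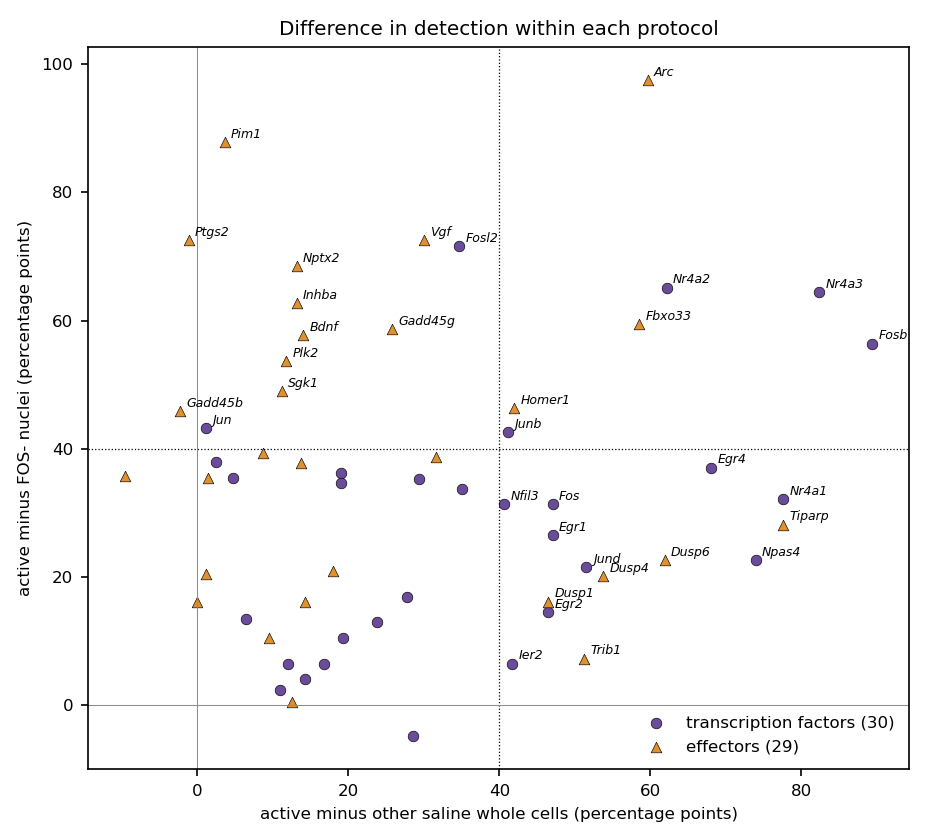
Difference in detecting share, in percentage points, between active and other saline-treated whole cells (horizontal) and between active and FOS− nuclei (vertical) for each activity gene compared, with lines at 40 points. Npas4 and Nr4a1 lie toward the whole-cell side, Pim1 and Ptgs2 toward the nuclear side, and Nr4a2, Fosb and Arc high on both.

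Whole cells from PTZ-treated mice gave another whole-cell set, compared with the same 31 nuclei. Between its cells of high and low Fos, 18 of the 59 activity genes differed by at least 40 points, beside 3.85% of all genes, a split that uses Fos. In the 14 PTZ-treated cells with over 100 TPM of Fos, all 11 genes called toward whole cells had the higher share than in nuclei, and 7 of them by at least 40 points. All 5 genes called toward nuclei had the lower share, 3 of them (Pim1, Ptgs2 and Inhba) by at least 40 points. Pim1 was detected in 7.14% of these cells, Inhba in 7.14% and Ptgs2 in 21.4%, and Egr1 in 92.9%. The genes under 40 points were Junb, Egr4, Rgs2 and Trib1 on one side and Gadd45b and Nptx2 on the other.

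The nuclei had been amplified at 1 or 10 µM of template-switching oligonucleotide (TSO) and with spike-ins diluted 1:200 or 1:2000, whereas all whole cells had 10 µM and 1:2000. In each of the 4 conditions, with 5 to 10 active nuclei apiece, the 11 genes had the higher share in whole cells and the 5 genes the higher share in nuclei. For Pim1 the difference ran from −90.5 to −50.5 points over the conditions and for Npas4 from 45.7 to 75.7. At the condition of the whole cells, with 9 nuclei, all 5 nuclear genes stayed past 40 points, and Fos, Junb, Egr1, Npas4 and Tiparp stayed among the 11, while Egr4, Nr4a1, Ier2, Dusp4, Rgs2 and Trib1 did not. Of the 56 activity genes then compared, 7 (12.5%) were called toward whole cells and 11 (19.6%) toward nuclei, beside 16% and 22.2% of all genes under the same setting.

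Promoter sequences were read for the called genes to see what they shared beyond the rule, and 2 from each side are shown, the 250 bases upstream of the first transcription start that RefSeq lists (GRCm38.p6, 5′ to 3′ on the gene's strand). They are Fos (chr12:85473640-85473889, plus strand), Npas4 (chr19:4989972-4990221, minus strand), Pim1 (chr17:29490535-29490784, plus strand, the first of 2 starts) and Ptgs2 (chr1:150099781-150100030, plus strand). Capitals mark TGACG, the core of the cAMP response element (CRE) bound by CREB, which reads as its reverse complement where it lies on the other strand, and the TATA box motif TATAAA. All motifs were searched on both strands.
Fos: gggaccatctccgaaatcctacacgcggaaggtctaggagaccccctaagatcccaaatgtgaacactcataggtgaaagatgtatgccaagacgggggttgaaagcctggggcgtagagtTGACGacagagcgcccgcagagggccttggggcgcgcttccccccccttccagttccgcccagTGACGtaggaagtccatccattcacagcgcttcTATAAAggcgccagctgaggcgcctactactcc
Npas4: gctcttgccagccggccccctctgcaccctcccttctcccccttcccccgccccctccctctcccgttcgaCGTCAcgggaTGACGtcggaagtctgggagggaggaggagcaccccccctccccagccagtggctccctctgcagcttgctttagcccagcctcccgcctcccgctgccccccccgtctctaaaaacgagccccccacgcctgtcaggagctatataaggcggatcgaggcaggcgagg
Pim1: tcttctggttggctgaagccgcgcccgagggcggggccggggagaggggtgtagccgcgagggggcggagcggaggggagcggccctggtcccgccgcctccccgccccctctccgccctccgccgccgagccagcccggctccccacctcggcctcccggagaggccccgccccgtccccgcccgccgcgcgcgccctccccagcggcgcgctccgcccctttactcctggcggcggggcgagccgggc
Ptgs2: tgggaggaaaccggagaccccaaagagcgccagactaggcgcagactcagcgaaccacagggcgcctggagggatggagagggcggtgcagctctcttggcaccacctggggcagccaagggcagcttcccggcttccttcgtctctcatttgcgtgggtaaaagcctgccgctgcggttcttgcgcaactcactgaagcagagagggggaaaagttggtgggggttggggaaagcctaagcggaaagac
Fos held TGACG at positions −129 and −66 from the start and TATAAA at −33, and Npas4 held TGACG at −179 and −169, whereas neither motif occurred in the windows of Pim1 and Ptgs2. The core was present in 6 of the 7 genes called toward whole cells that have an entry (Fos, Junb, Egr4, Nr4a1, Npas4 and Rgs2, without Tiparp) and in 0 of the 4 called toward nuclei (Pim1, Ptgs2, Gadd45b and Inhba). It was present in 24 of 45 activity genes with an entry (53.3%), in 26.9% of promoters of all genes compared and in 17.9% of all 27025 promoters. The palindrome TGACGTCA, which contains the core, the AP-1 motif TGANTCA and the CArG box of serum response factor matched none of these 11 windows. The EGR motif GCGNGGGCG matched 2 of 7 and 1 of 4, beside 24.4% of activity genes with an entry, 8.26% of promoters of all genes compared and 4.65% of all promoters. The TATA box motif matched 1 of 7 (Fos) and 2 of 4 (Gadd45b and Inhba). It matched 11.1% of activity genes with an entry, 6.59% of promoters of all genes compared and 13% of all promoters. A match describes letters in a short window and no match says nothing about a factor.

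Positions in the GRCm38 annotation (GENCODE vM21) gave the extent of the called genes. The genomic span had a median of 5162 bases for the 11 genes called toward whole cells (1522 in Ier2 to 27109 in Tiparp) and 8197 for the 5 called toward nuclei (2132 in Gadd45b to 19771 in Inhba). It was 8913 for the activity genes called in neither direction and 26246 for all protein-coding genes compared. Fos lies on chromosome 12 (85473890 to 85477273, plus strand) and has 4 exons, and Junb and Ier2 have 1 exon each. Pim1 lies on chromosome 17 (29490753 to 29496112, plus strand) with 6 exons, Ptgs2 on chromosome 1 (150100031 to 150108227, plus strand) with 10, and Inhba on chromosome 13 (16011851 to 16031621, plus strand) with 5. The 3′ UTR had medians of 818 and 1368 bases, beside 1332 for all. The AU-rich element TATTTAT, a motif of short-lived mRNAs searched on the transcript's strand, occurred in 2 of 11 and 3 of 5 of the 3′ UTRs, beside 58.1% of the activity genes called in neither direction and 31.4% of all genes. It occurred 6 times in Ptgs2, 5 times in Inhba and 4 times in Pim1.

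The pathway that leads from calcium to CREB and serum response factor comprised 33 genes, 32 of them compared. Of these, 5 were called toward whole cells (among them Hras, Mapk3, Srf and Mef2d) and 1 toward nuclei (Rps6ka3), 15.6% and 3.12% beside 17.5% and 14.5% of all genes, with a median difference of 9.22 points. The gene of the MAP kinase ERK1, Mapk3, was detected in 81% of whole cells and 12.9% of nuclei, and Hras, a small GTPase, in 52.4% and 6.45%. Rps6ka3, whose product RSK2 phosphorylates CREB, was detected in 14.3% and 71.0%. Within whole cells, Srf, the serum response factor gene, was the only member called, at 71.4% of active and 5.88% of other saline-treated cells. Within nuclei, Rps6ka3 was detected in 71.0% of active and 19.5% of FOS− nuclei, and 1 other member was lower in active nuclei by at least 40 points.

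Of 18 heat shock and stress genes compared, 3 (16.7%) were called toward whole cells, beside 17.5% of all genes, and 0 toward nuclei, and after thinning 4 and 1. The mitochondrial chaperonin Hspd1 was detected in 100% of whole cells and 22.6% of nuclei, its partner Hspe1 in 100% and 51.6%, and Ddit4, an inhibitor of mTORC1, in 85.7% and 29%. The list summed to a median of 16491 TPM in active whole cells (10660 to 25321), 8824 TPM in other saline-treated cells (3259 to 15799), 4392 TPM in active nuclei (484 to 15705) and 1906 TPM in FOS− nuclei (59.7 to 6934). The sum was thus higher in active than in low-activity samples of both protocols, and the part of dissociation in the Fos-high whole cells was not tested.

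The summed levels of nuclear noncoding RNAs and of cytosolic ribosomal protein mRNAs also differed between the sets. The 10 nuclear noncoding RNAs summed to a median of 167403 TPM in active nuclei and 16226 TPM in active whole cells, most of it Malat1 (medians 163433 and 14794 TPM). Mirg was the only one called, toward nuclei, a share of 10% beside 14.5% of all genes. The sum had medians of 87656 TPM in FOS− nuclei and 229118 TPM in HC nuclei. Because TPM is a share of each library, this sum leaves less TPM for all other genes in nuclei. Its part in the differences of single genes was not tested. Of 47 cytosolic ribosomal protein genes, 40 (85.1%) were called toward whole cells, among them Rplp0 (100% and 29%) and Rplp1 (100% and 45.2%), and 0 toward nuclei. Of all genes, 17.5% and 14.5% were so called. They summed to a median of 24100 TPM per active whole cell and 6280 TPM per active nucleus.

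Markers of other cell types differed between the sets as well. Of 6 astrocyte markers 2 were compared and 2 (100%) called toward nuclei, Slc1a3 (9.52% and 77.4%) and S100b (0% and 61.3%). Of 9 oligodendrocyte markers 4 were compared and 2 (50%) so called, among them Mag (9.52% and 64.5%). Of 7 microglia markers 2 were compared and 1 (50%) so called, Cx3cr1 (0% and 80.6%). Of 10 interneuron markers 5 were compared and 1 (20%) so called, Reln (0% and 41.9%). Of 6 pyramidal cell markers 4 were compared and 1 (25%) so called, Ociad2. In these lists 0 were called toward whole cells. The levels were low, at medians of 4.33 TPM for Cx3cr1 and 13.7 TPM for Mag, and the defining markers Mog, Olig2, C1qa and Slc32a1 were at 0 in every active nucleus. After thinning to 80000 reads Cx3cr1 and Ociad2 kept their call and Slc1a3, S100b, Mag and Reln did not, and 14.5% of all genes were called toward nuclei before thinning and 8.77% after. FOS− nuclei detected Cx3cr1 in 80.5%. Summed per nucleus, the median was 107 TPM for interneuron markers (0.55 to 4986), 13.9 TPM for astrocyte (0 to 676), 49.5 TPM for oligodendrocyte (0 to 1017) and 4.66 TPM for microglia markers (0 to 4304). The corresponding medians in whole cells were 154 TPM (0 to 795), 0 TPM (0 to 52), 29.3 TPM (0 to 152) and 0 TPM (0 to 27.2). Gad1 was the only interneuron marker above 1 TPM in any active whole cell. In active nuclei, 2 of the 10, Slc32a1 and Pvalb, were never above 1 TPM. Of 10 granule cell markers, C1ql2 (95.2% and 45.2%) and Stxbp6 (90.5% and 41.9%) were called toward whole cells, a share of 20% beside 17.5% of all genes, and 0 toward nuclei. Of 8 markers of immature granule cells 5 were compared. Neurod1 was called toward whole cells (85.7% and 32.3%) and Draxin toward nuclei (4.76% and 54.8%), the latter not after thinning.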

How the data were processed

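The authors sequenced each cell or nucleus as its own library, with Smart-seq2 for the whole cells and NE nuclei and the C1 system for HC nuclei, and deposited expected counts and TPM for every symbol, in separate tables for each protocol. The expected counts deposited by the authors are RSEM's unnormalized read estimates, and the TPM values deposited are these estimates corrected for length and scaled within each cell. The submitters' processing notes name RSEM, Bowtie 1.0.0 and mm10. Samples were grouped by their labels, and the 42609 symbols shared by both tables were compared. All columns matched a sample, and no 2 columns were identical. Totals above 50000 replaced the authors' limit on aligned reads. The authors also limited the correlation of spike-ins with their expected amounts and the number of genes. These further limits were not part of the choice here, so the sets can differ from those of the study. Near-identical genes are uncertain, as RSEM divides their reads.

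Detection was a TPM over 1. Genes detected in at least 5 of the 52 cells and nuclei were compared, and a gene was called at a difference of 40 percentage points. Shares carry exact Clopper-Pearson intervals, their differences Newcombe intervals, and summed counts (CPM) exact Poisson intervals, all at 95%. A count of 0 allows a share of up to 3 over the number of cells. Levels are means of log2(TPM + 1) with a pseudocount of 1. Reads carry no molecular identifiers and are not independent molecules. Thinning gave the expected share of cells with at least 1 read among 80000. The counting and thinning steps were tested on simulated data. Each group is 1 sample, so no test was run. Mitochondrially encoded genes were not analysed here, and some called list members are not reported here.

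The cells, gene lists, thresholds and rules were chosen with earlier results of these data known. Named were Fos and Arc, activity genes called between or within the protocols or detected in at least 50% of both sets, the 5 other genes in each direction with the largest difference in level, and up to 4 called members of each other list in list order. Mef2d, Srf and the genes at 0 among the cell type markers were chosen for naming once their values were known. Alternatives covered the limits for detection, Fos, Arc and calls, the gene filter, depth, amplification, scaling and single cells. Promoter and gene models came from RefSeq GRCm38.p6 and GENCODE vM21, and 45 of 62 activity genes had a promoter entry. Python 3.11.15, pandas 2.3.3, numpy 2.4.6, scipy 1.17.1 and matplotlib 3.10.9 were used.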

Additional observations from a re-analysis of the deposited data

How the results depend on the processing

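No paired analysis was possible because the labels give no number that ties a whole cell to a nucleus, and each group is 1 sample. All 11 genes called toward whole cells and all 5 called toward nuclei kept their direction under each alternative that was run. The number of activity genes called toward whole cells, 11, was 7 with nuclei of the whole cells' amplification condition, 17 at a limit of 30 points and 5 at 50 points. The number called toward nuclei, 5, was 11, 9 and 4 under these, and 3 with all 40 FOS+ nuclei, when Gadd45b and Nptx2 lost their call. Their median difference of 10.9 points was 16.7 with detection as 5 counts and 2.38 at the matched amplification condition. Over all genes, the 2630 called toward whole cells were 1695 at 50 points. The 2168 called toward nuclei were 1160 with detection at 10 TPM, 793 with 5 counts and 1315 after thinning. The 21 genes called within whole cells were 13 at 50 points, and the 19 called within nuclei were 34 at 30 points. The cause of these shifts was not tested.

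The other 124 of 138 values stayed within 1.5 times the count, 5 points of the median difference or, for the numbers detected per cell, 1 SD over cells. Leaving out each cell in turn gave 10 to 13 genes toward whole cells, 5 to 5 toward nuclei and a median difference of 9.35 to 14.4 points. It gave 2609 to 2801 and 2152 to 2288 over all genes, 19 to 21 within whole cells and 19 to 22 within nuclei. The numbers detected per cell had medians of 34.5 to 35.5 and 29 to 29.5. For the 39 named genes, 16 shares and 2 mean levels under the alternatives moved by more than counting error or 1 SD, and 608 and 76 did not. None of the genes called toward whole cells or nuclei was reversed. Reversal was not counted for the other named genes, whose sign could change. Nr4a2, for example, went from −1.38 to 0.386 points after thinning. Leaving out the 8 nuclei with other cell types' markers was an alternative chosen after seeing the data. A share of 71.4% of 21 whole cells has an interval from 47.8 to 88.7, and a gene absent at these depths may be present below 1 TPM.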

Other observations

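Outside the lists, the 5 genes with the largest excess in mean log2(TPM + 1) in active whole cells over active nuclei were Gm15459 (9.78), Prox1os (9.46), Gm26825 (9.16), the tubulin gene Tuba1a (8.47) and the neuronal membrane protein gene Ctxn1 (8.34). Each was detected in all 21 whole cells, and Tuba1a and Ctxn1 were detected in 29% and 32.3% of nuclei. Prox1os is named as an antisense gene of Prox1 and the counting is not stated to use strand, so its reads cannot be told apart from those of its partner.

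In the other direction Gm24975, Gm25100, Gm28019 and Gm26463 all differed by −10.18 and Gm23268 by −9.99. Each was detected in all 31 active nuclei and is listed at 0 in all 21 whole cells. The first 4 had the same values in every library, as copies between which reads were divided, so they are uncertain as separate genes. The read layout differs between the tables, and its part in these values was not tested.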
